A study of Mus musculus with 6 samples.

Results

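Collagens are proteins of the extracellular matrix built from 3 chains wound into a triple helix, and each chain has its own gene. The genes described here are the 44 mouse genes annotated as protein coding whose symbol names a collagen chain (Col, a type number, the letter a and a chain number), taken from a table of 55487 genes. By protein class they comprise 11 fibrillar chains, 6 basement membrane chains, 9 FACITs (fibril-associated collagens with interrupted triple helices) and 18 other chains. RNA was measured in primary mouse embryonic fibroblasts (MEFs), which are grown out of embryos and stop dividing after a few replatings (passages) in standard culture. All cells were wild-type and were kept in DMEM with 10% fetal bovine serum. The groups were passage 6 (P6) cells, labelled senescent, with α-amyrin, with β-amyrin or with vehicle, and passage 1 (P1) cells, labelled non-senescent, with the same 3 treatments, where each compound was given at 20 µM for 3 days. There was 1 library per condition, 6 in all. Nothing in the labels ties the libraries to separate cultures, so p-values measure only the spread among these 6. They also do not say that P6 came from the same isolate of cells as P1, so passage and isolate cannot be told apart.

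Fibrillar collagens (types I, II, III, V, XI, XXIV and XXVII) include the chains of the cross-striated fibrils of skin, tendon, bone and cartilage. Type IV chains form the sheet-like network of basement membranes, and FACITs sit on the surface of fibrils. Among the others, type VI forms beaded filaments around cells, type VII anchors epithelia to the stroma, types VIII and X form short-chain networks, and types XV and XVIII (multiplexins) lie next to basement membranes. Fibroblasts are the main producers of types I, III, V and VI. Chains are combined into trimers in the endoplasmic reticulum, where prolines and lysines are hydroxylated, before secretion, removal of the end propeptides and cross-linking.

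Total read counts were 18798418, 25440191 and 23826025 at P6 and 28752332, 25077506 and 26136738 at P1; wherever 3 values of a passage are given, they are those of the α-amyrin, β-amyrin and vehicle libraries in that order. Levels are in CPM (reads per library total, with the total adjusted by TMM). For levels of different genes the FPKM that the authors deposited are used, which are scaled by gene length. Shares of reads by class or gene are not scaled by length, so longer genes weigh more in them. Markers of other cells moved with passage. All 12 macrophage markers listed were higher at P6, with a summed level of 4980, 3532 and 4913 CPM at P6 against 270, 40.8 and 321 CPM at P1. Of 10 fibroblast markers 1 was higher and 7 were lower, with sums of 3669, 3894 and 3522 CPM at P6 against 4065, 4109 and 3903 CPM at P1; Pdgfra had 28.9, 28.7 and 24.2 CPM at P6 against 189, 145 and 121 CPM at P1. In bulk RNA, fewer cells of a type and less RNA per cell cannot be told apart.

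Collagen RNA was abundant in every library. Reads in the 44 genes made up 3.32%, 3.93% and 4.17% of all reads at P6, against 3.84%, 4.42% and 4.61% at P1. The means were 3.81% ± 0.44 at P6 and 4.29% ± 0.40 at P1 (SD, n = 3 each), and the libraries of the passages overlapped (exact permutation test, two-sided, p = 0.3, also 0.3 after adjustment over all members and the 4 classes, where 3 against 3 allows no p below 0.1). Within each of the 3 treatments the P6 library had a lower share than the P1 library. At both passages the α-amyrin library had the lowest share and the vehicle library the highest. Fibrillar chains took 74.1%, 75.5% and 74.8% of the collagen reads at P6 and 73.6%, 74.0% and 74.2% at P1, so this proportion was nearly the same in all libraries. Col1a1, the α1 chain of type I collagen, alone took 28.2%, 29.4% and 30.0% of the collagen reads at P6 and 31.6%, 31.9% and 32.5% at P1, and every P6 library was below every P1 library.

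**Figure D1:**
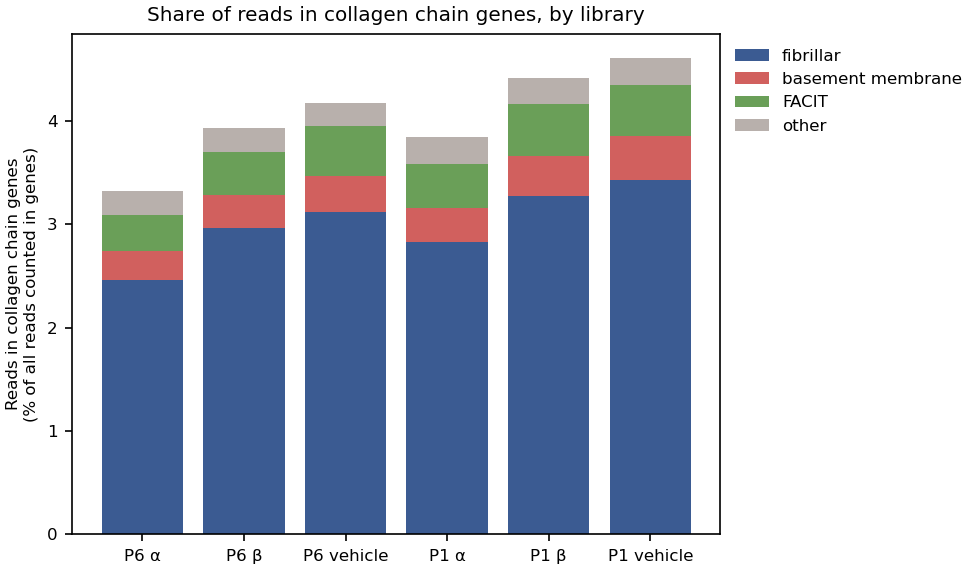
Reads in the 44 collagen chain genes as a percentage of all reads counted in genes (y axis), in each of the 6 libraries (x axis), stacked by class. The α-amyrin bar is the lowest of its passage at P6 (3.32%) and at P1 (3.84%), and the fibrillar class is the largest part of every bar.

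On the FPKM scale, averaged over the 6 libraries, the highest levels were those of Col1a1 at 1898 and Col1a2, the α2 chain of type I collagen, at 640. They were followed by Col5a1 at 358, Col5a2 at 351, Col3a1 at 295, the FACIT Col12a1 at 283, Col4a1 at 238, Col4a2 at 234 and Col6a1 at 144. Of the 44 genes, 26 had a mean of at least 5 CPM. Another 4 did not pass the filter on low counts and were not tested: Col13a1 (0 reads in each P6 library against 1, 1 and 2 reads at P1), Col17a1 (4, 4 and 11 reads at P6 against 10, 8 and 16 at P1), Col6a5 (0, 0 and 2 reads against 5, 6 and 5) and Col6a6 (2, 6 and 3 reads against 5, 9 and 10).

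More collagen chain genes were lower than higher at P6. In edgeR's quasi-likelihood test, with passage and treatment as additive terms and p-values adjusted over 16962 genes, 7 of the 40 tested members were higher at P6, 22 were lower and 11 passed in neither direction. Among all tested genes 30% were called higher and 29.1% lower. With a change of at least 2-fold as well, 2 members were higher (Col10a1 and Col28a1) and 11 were lower, against 9.93% and 6.59% of all genes. The median log2 change, P6 minus P1, was -0.36 over the members and 0.00 over all tested genes. All P6 libraries were above all P1 libraries for 6 members and below them for 19, against 32.5% and 32.2% of all genes. Within single treatments, pairs of libraries were described by size with no test, among genes with CPM of at least 5 in either library of the pair. In that set 2 members were at least 2-fold higher at P6 in each pair of libraries, but not the same 2. They were Col10a1 and Col18a1 with α-amyrin, and Col10a1 and Col28a1 with β-amyrin and with vehicle. In the same set 4 were at least 2-fold lower with α-amyrin, 5 with β-amyrin and 6 with vehicle. Among all genes of the set 7.97%, 7.99% and 7.82% were so much higher and 5.54%, 5.45% and 5.36% so much lower in the α-amyrin, β-amyrin and vehicle pairs. The filter on low counts kept a gene that was expressed at 1 passage only. Col9a1, Col4a3, Col4a4, Col25a1 and Col26a1 entered through their P1 level, and all were called at least 2-fold lower. Of the members called at least 2-fold lower, only Col2a1, Col4a6 and Col8a2 had a mean of at least 5 CPM. Of those called at least 2-fold higher, only Col10a1 did. Among the 26 members with mean CPM of at least 5, 6 were higher and 13 lower, with 3993 and 3921 of 11715 genes in that set.

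Among fibrillar chains 1 of 11 was higher at P6, 6 were lower and 4 were not called, with a median log2 change of -0.33. The abundant chains moved little and not all the same way. Col1a1 had 9338, 11721 and 12622 CPM at P6 against 11859, 14229 and 15011 CPM at P1. Its log2 change was -0.29 ± 0.04 (SE; adjusted p = 0.001), and the passages overlapped because the P1 α-amyrin library was below the P6 vehicle library. Its partner Col1a2 had 6872, 8151 and 8000 CPM at P6 against 6511, 7505 and 7835 CPM at P1, a log2 change of 0.08 ± 0.04 that did not pass (adjusted p = 0.16). Col3a1, the single chain of type III collagen, was lower in every P6 library, with 2211, 2552 and 2536 CPM at P6 against 3104, 3414 and 3338 CPM at P1 (log2 change -0.44 ± 0.04, adjusted p = 0.00015).

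Type V collagen initiates fibrils at the cell surface and limits their width, and type XI does the same in cartilage. Col5a1 was not called, with 2609, 3148 and 3361 CPM at P6 against 2528, 3143 and 3584 CPM at P1 (log2 change -0.02, 95% interval of -0.12 to 0.09). Col5a2 was the fibrillar chain called higher, with 2880, 3702 and 4090 CPM at P6 against 2455, 3254 and 3160 CPM at P1. Its log2 change was 0.26 ± 0.05 (adjusted p = 0.0034), its passages overlapped, and the call was lost when the treatment term was dropped (adjusted p = 0.144). Col5a3, the third type V chain, had 83.6, 91.4 and 97.7 CPM at P6 against 77.6, 123 and 172 CPM at P1 and was not called. Its P1 libraries differed widely, with the vehicle library highest. Col11a1 was lower in every P6 library, with 401, 516 and 573 CPM at P6 against 647, 792 and 750 CPM at P1 (log2 change -0.57 ± 0.06, adjusted p = 0.00029).

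The largest fibrillar change was in Col2a1, the chain of the main cartilage collagen. It had 91.7, 121 and 152 CPM at P6 against 389, 440 and 416 CPM at P1, a level 3.47-fold lower at P6 (log2 change -1.80 ± 0.11, adjusted p = 2.7e-05). The passages were far apart, and within P6 the α-amyrin library was lowest. Col24a1 was also lower, with 6.80, 6.13 and 5.75 CPM at P6 against 9.85, 12.7 and 13.6 CPM at P1 (log2 change -0.95 ± 0.15). Col27a1, a fibrillar chain of developing cartilage, had 25.7, 28.6 and 34.0 CPM at P6 against 28.7, 39.4 and 43.5 CPM at P1 and a log2 change of -0.33 ± 0.07 with overlapping passages. Col11a2 had a log2 change of 0.16 ± 0.15 and was not called.

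**Figure D2:**
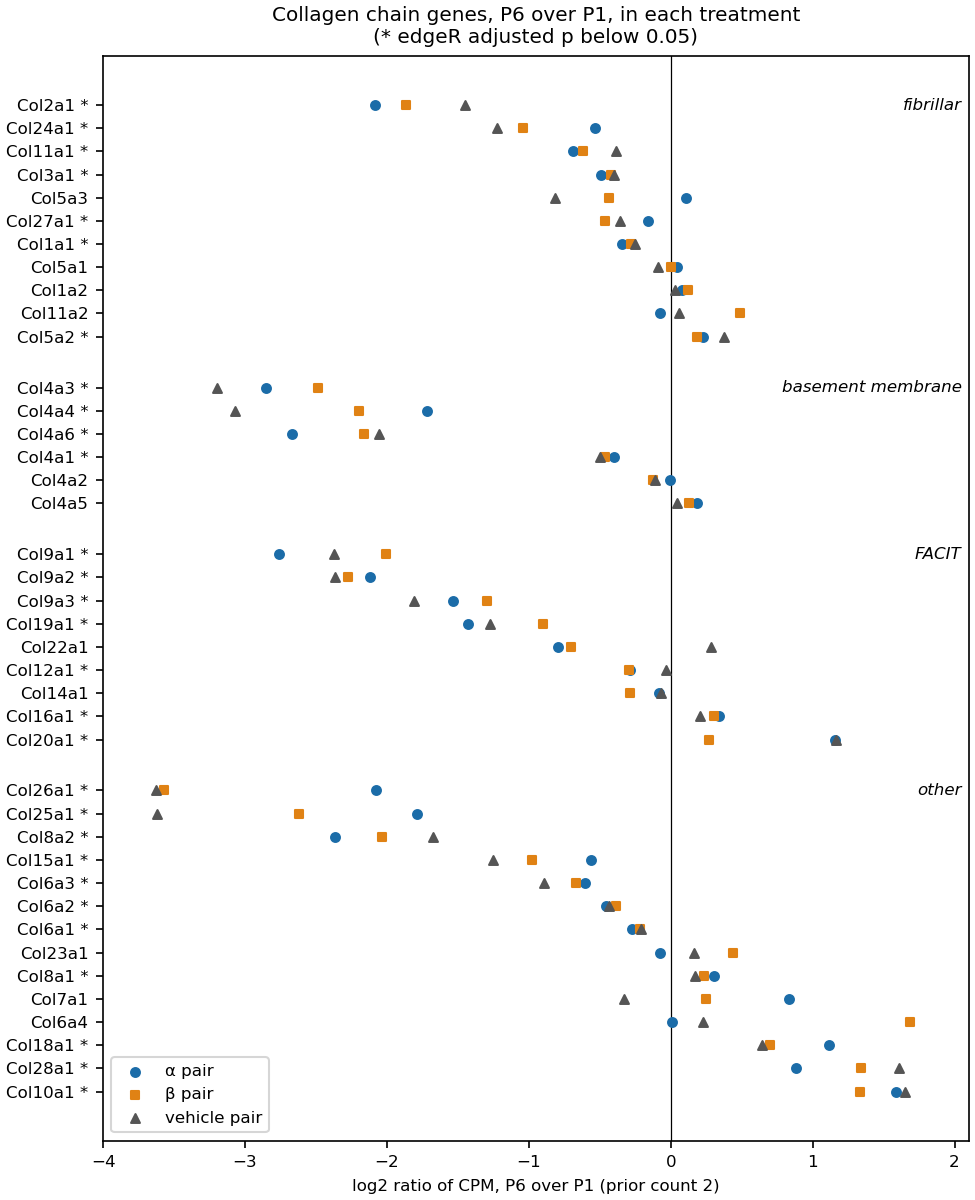
Log2 ratio of CPM, P6 over P1 (x axis, prior count 2), for each of the 40 tested collagen chain genes (rows, by class), within the α-amyrin (circles), β-amyrin (squares) and vehicle (triangles) pairs of libraries. Asterisks mark an edgeR adjusted p below 0.05; all 3 points of Col4a3, Col9a1 and Col2a1 lie to the left of 0, and all 3 of Col10a1 lie to the right.

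The basement membrane chains ranged from a log2 change of -3.02 in Col4a3 to 0.12 in Col4a5. Type IV collagen is made from 6 genes that lie in 3 pairs, each transcribed outwards from a shared start region (head to head). The trimer of 2 α1 chains and 1 α2 chain is found in all basement membranes, and the α3, α4, α5 and α6 chains have restricted sites such as kidney, eye and skin. At P6 4 of the 6 were lower, 0 were higher and 2 were not called. On mm10, Col4a1 (chr8:11198423-11312826, minus strand) and Col4a2 (chr8:11312805-11449287, plus strand) overlap by 22 bases at their starts. Col4a4 (chr1:82448423-82586849, minus strand) and Col4a3 (chr1:82586921-82722059, plus strand) have 71 bases between them. Col4a6 (chrX:141165403-141474076, minus strand) and Col4a5 (chrX:141475385-141689234, plus strand) have 1308 bases between them. The sequences between the gene bodies are shown because the members of a pair share this DNA. They come from RefSeq promoter windows on GRCm38.p6, read on the strand of the gene named and without annotated exons, and capitals mark a GC box (GGGCGG) or a CCAAT box (CCAAT) on either strand.
Col4a4 and Col4a3, all bases between the genes, chr1:82586850-82586920, strand of Col4a4: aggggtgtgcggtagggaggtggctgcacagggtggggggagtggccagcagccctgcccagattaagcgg
Col4a6, chrX:141474077-141474326, minus strand: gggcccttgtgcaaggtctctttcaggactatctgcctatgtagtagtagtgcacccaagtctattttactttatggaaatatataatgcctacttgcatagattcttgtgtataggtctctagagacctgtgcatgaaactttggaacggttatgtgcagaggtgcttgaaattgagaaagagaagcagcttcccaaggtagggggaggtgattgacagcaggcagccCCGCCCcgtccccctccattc
Col4a5, chrX:141475169-141475384, plus strand: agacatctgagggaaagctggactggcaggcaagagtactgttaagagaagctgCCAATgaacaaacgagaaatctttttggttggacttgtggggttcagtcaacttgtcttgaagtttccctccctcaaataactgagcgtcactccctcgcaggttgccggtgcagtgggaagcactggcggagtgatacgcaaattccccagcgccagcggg

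Neither box stands in the 71 bases between Col4a4 and Col4a3, the Col4a6 stretch holds a GC box, and the Col4a5 stretch holds a CCAAT box. The whole Col4a5 window of 250 bases, which runs into the gene, holds 1 GC box as well. The Col4a4 and Col4a5 stretches shown are cut where a gene starts and are shorter than 250 bases. Over all 32851 mouse promoter windows of 250 bases, 32.7% held a GC box and 33.8% a CCAAT box, so such matches are common and describe only these letters.

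The 3 pairs behaved differently with passage. Col4a1 was lower in every P6 library, with 1293, 1482 and 1607 CPM at P6 against 1705, 2043 and 2275 CPM at P1 (log2 change -0.45 ± 0.04, adjusted p = 0.00013). Col4a2 had 1326, 1496 and 1655 CPM at P6 against 1334, 1635 and 1789 CPM at P1, and was not called (log2 change -0.08 ± 0.04, adjusted p = 0.14). Both genes of the next pair were lower at P6 in every library, on few reads.
Col4a3 had 7, 14 and 8 reads at P6 against 94, 87 and 98 reads at P1 (log2 change -3.02 ± 0.25, adjusted p = 8.2e-05), and Col4a4 had 12, 16 and 9 reads at P6 against 67, 80 and 99 reads at P1 (log2 change -2.49 ± 0.30, adjusted p = 0.00044). Col4a3 is overlapped on the opposite strand by C430014B12Rik, which had 561 reads in all against 308 for Col4a3, so its counts are uncertain. Within the Col4a6 and Col4a5 pair the genes parted. Col4a6 had 3.77, 5.13 and 4.95 CPM at P6 against 24.4, 23.2 and 20.8 CPM at P1, 4.90-fold lower at P6 (log2 change -2.29 ± 0.13, adjusted p = 2e-05). Its neighbour Col4a5 had 205, 227 and 218 CPM at P6 against 180, 207 and 211 CPM at P1 and was not called (log2 change 0.12 ± 0.05, adjusted p = 0.063). Summed markers of cells that carry basement membrane chains were also lower at P6. The 6 mesothelium markers, all called lower, summed to 10.6, 9.35 and 9.05 CPM at P6 against 185, 154 and 149 CPM at P1. The 7 epithelium markers summed to 1.17, 2.11 and 0.635 CPM at P6 against 15.3, 18.8 and 15.7 CPM at P1. Of 5 epithelium markers tested, 3 were called lower and 0 higher. Among the rest, Trp63 (log2 change 0.43) was not called, and Krt5 had reads only at P6 (0.159, 0.279 and 0.0846 CPM). The endothelium, skeletal muscle, and Schwann cell and neural marker lists also had lower sums in every P6 library. Of their tested markers 3 of 3, 2 of 3 and 4 of 5 were called lower and 0 higher. Acta1 (log2 change 0.12) was not called. Pecam1, not tested, had 0.531, 0.199 and 0.762 CPM at P6 against 0.374, 0.241 and 0.0384 CPM at P1. The part of such cells in the lower Col4a3, Col4a4 and Col4a6 was not tested.

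**Figure D3:**
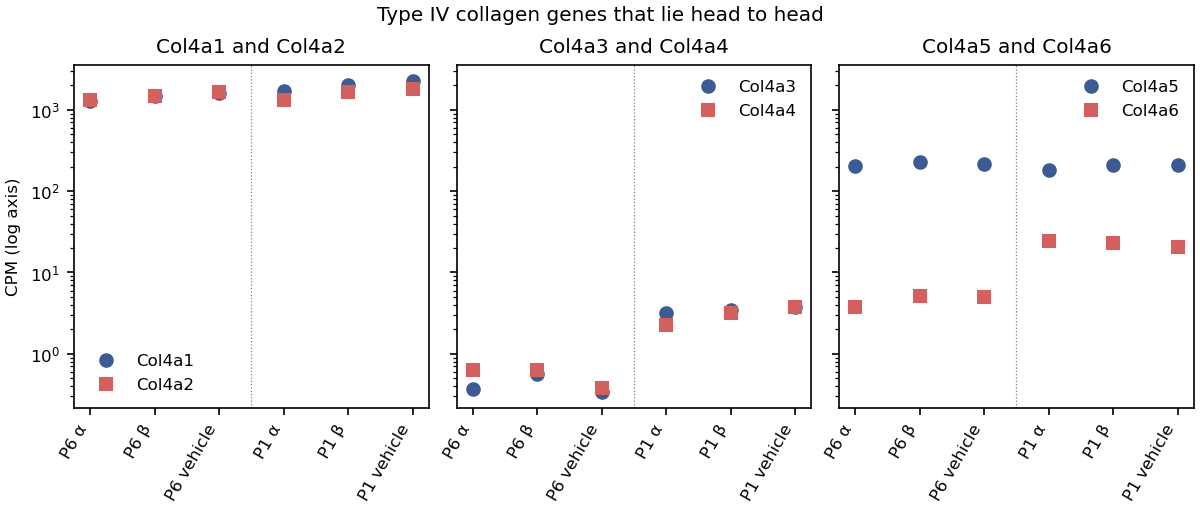
CPM on a log axis (y axis) of the type IV collagen genes in each of the 6 libraries (x axis, P6 left of the dotted line and P1 right of it), 1 panel for each head-to-head pair. Col4a3 and Col4a4 are both lower in the P6 libraries, whereas Col4a6 is lower and Col4a5 overlaps between the passages.

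Of the 9 FACIT genes 2 were higher at P6, 5 were lower and 2 were not called, with a median log2 change of -0.41. Col12a1, the abundant FACIT of dense connective tissue, had 3239, 3951 and 4602 CPM at P6 against 3945, 4855 and 4708 CPM at P1. Its log2 change was -0.20 ± 0.06 (adjusted p = 0.024), with overlapping passages. Col16a1 was higher in every P6 library, with 204, 206 and 199 CPM at P6 against 161, 167 and 172 CPM at P1 (log2 change 0.28 ± 0.05, adjusted p = 0.0019). Col14a1 had 24.8, 19.7 and 24.2 CPM at P6 against 26.3, 24.0 and 25.3 CPM at P1 and was not called.

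All 3 chains of type IX collagen, which coats the type II fibrils of cartilage, were lower at P6, at low levels. Col9a1 had 2, 3 and 3 reads at P6 against 35, 18 and 26 reads at P1 (log2 change -2.95 ± 0.40, adjusted p = 0.00072). Col9a2 had 13, 18 and 15 reads at P6 against 96, 94 and 94 reads at P1 (log2 change -2.38 ± 0.21, adjusted p = 9.5e-05). Col9a3 had 35, 51 and 44 reads at P6 against 163, 127 and 175 reads at P1 (log2 change -1.58 ± 0.16), but it overlaps Tcfl5 on the opposite strand, and no source used here says whether counting used strand. Every P6 library was below every P1 library for these genes, as it was for Col2a1 and Col11a1. Cartilage markers moved in both directions. The 10 listed markers summed to 23.9, 26.0 and 29.4 CPM at P6 against 58.4, 57.9 and 56.3 CPM at P1, and of 6 tested, 4 were lower and 2 higher. Acan, the main cartilage proteoglycan, had 0.319, 0.716 and 0.846 CPM at P6 against 11.8, 20.5 and 20.1 CPM at P1, while Snorc was at 0 reads in all libraries. The part of cartilage-type cells in the lower Col2a1, type IX chains and Col11a1 was not tested.

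Col19a1 was lower on 10, 18 and 15 reads at P6 against 46, 35 and 43 reads at P1 (log2 change -1.28 ± 0.27). Col20a1 was called higher, with 29, 43 and 92 reads at P6 against 19, 35 and 44 reads at P1 (log2 change 0.91 ± 0.26, adjusted p = 0.021). Its passages overlapped, and the call was lost without any of the P6 vehicle (adjusted p = 0.149), P6 α-amyrin (0.0827), P1 vehicle (0.149) or P1 α-amyrin (0.0854) libraries. It also lies with 9230112E08Rik, a same-strand gene with more reads than Col20a1, so its counts are uncertain. Col22a1 had at most 19 reads in a library and was not called.

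Among the other chains, 4 were higher at P6, 7 were lower and 3 were not called. The largest rise was in Col10a1, whose chain forms the network of hypertrophic cartilage, with 97.5, 100 and 122 CPM at P6 against 32.5, 39.7 and 38.7 CPM at P1. It was 2.88-fold higher at P6 (log2 change 1.52 ± 0.07, adjusted p = 1e-05), the opposite direction to types II and IX. Its reads may include some from Nt5dc1, which overlaps it on the opposite strand and had 16.3% as many reads. The level of Col18a1, whose C-terminal fragment is endostatin, was 115, 102 and 118 CPM at P6 against 53.1, 62.5 and 75.6 CPM at P1 (log2 change 0.82 ± 0.09, adjusted p = 0.00031); here the overlapping Slc19a1 had 17.7% as many reads. Col28a1 was also higher, with 6.16, 6.53 and 6.94 CPM at P6 against 3.30, 2.53 and 2.22 CPM at P1 (log2 change 1.29 ± 0.17). For these 3 genes all P6 libraries were above all P1 libraries.

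The α1, α2 and α3 chains of type VI collagen, which assemble as trimers, were lower at P6. Col6a1 had 581, 582 and 571 CPM at P6 against 702, 676 and 659 CPM at P1 (log2 change -0.23 ± 0.04), and Col6a2 had 314, 307 and 314 CPM at P6 against 431, 402 and 424 CPM at P1 (log2 change -0.43 ± 0.04). Col6a3 had 455, 439 and 412 CPM at P6 against 691, 696 and 764 CPM at P1, the largest change of the 3 (log2 change -0.72 ± 0.06, adjusted p = 9.1e-05). The libraries of the passages did not overlap for any of these genes. Col6a4, with 9, 24 and 12 reads at P6 against 14, 6 and 11 reads at P1, was not called.

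Both chains of type VIII collagen were called, in opposite directions. Col8a1 had 616, 709 and 638 CPM at P6 against 499, 604 and 567 CPM at P1 (log2 change 0.24 ± 0.04, adjusted p = 0.0035). Col8a2 had 8.97, 10.5 and 12.7 CPM at P6 against 46.6, 43.5 and 40.9 CPM at P1, 4.06-fold lower at P6 (log2 change -2.02 ± 0.13, adjusted p = 2.7e-05). Neither gene overlapped between passages. Their upstream stretches, shown because the genes lie on different chromosomes and parted with passage, both hold 4 GC box matches (capitals, GGGCGG on either strand, overlaps counted) and no CCAAT box.
Col8a1, chr16:57754738-57754987, minus strand: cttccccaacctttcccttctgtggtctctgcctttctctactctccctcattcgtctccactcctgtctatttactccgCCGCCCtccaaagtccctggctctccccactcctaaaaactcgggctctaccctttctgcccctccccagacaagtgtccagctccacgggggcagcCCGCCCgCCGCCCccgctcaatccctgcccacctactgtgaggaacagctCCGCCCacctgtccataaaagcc
Col8a2, chr4:126286544-126286792, plus strand: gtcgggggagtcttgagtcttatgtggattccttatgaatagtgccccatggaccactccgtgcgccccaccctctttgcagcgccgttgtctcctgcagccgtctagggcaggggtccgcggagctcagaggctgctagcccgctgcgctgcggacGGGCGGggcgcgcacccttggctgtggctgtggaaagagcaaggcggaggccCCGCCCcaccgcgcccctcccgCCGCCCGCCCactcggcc

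The remaining called members were low. Col15a1, the multiplexin related to Col18a1, had 42, 58 and 68 reads at P6 against 98, 115 and 182 reads at P1 (log2 change -0.98 ± 0.18). Col25a1, a transmembrane collagen, had 8, 9 and 2 reads at P6 against 49, 65 and 51 reads at P1 (log2 change -2.88 ± 0.41). Col26a1 had 4, 0 and 0 reads at P6 against 34, 22 and 24 reads at P1. Its fitted log2 change of -3.93 depends on the prior count and became -7.55 without the P6 α-amyrin library, the only P6 library with reads. Col7a1, the anchoring fibril chain, had 77.9, 93.5 and 81.0 CPM at P6 against 43.7, 78.6 and 102 CPM at P1 and was not called, nor was Col23a1 (log2 change 0.18 ± 0.19).

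Because chains of a type can be assembled together, the ratio of partner chains was computed in each library from FPKM. The Col1a1 to Col1a2 ratio was 2.44, 2.54 and 2.83 at P6 against 3.23, 3.34 and 3.43 at P1. For Col4a1 to Col4a2 it was 0.876, 0.889 and 0.870 at P6 against 1.15, 1.13 and 1.14 at P1, and for Col5a1 to Col5a2 it was 0.980, 0.925 and 0.891 at P6 against 1.12, 1.05 and 1.23 at P1. In these 3 pairs the α1 chain was lower relative to its partner in every P6 library. The ratio of Col6a3 to Col6a1 was 0.284 ± 0.011 at P6 and 0.399 ± 0.034 at P1, and that of Col6a1 to Col6a2 was 3.56 ± 0.10 at P6 and 3.11 ± 0.15 at P1 (SD, n = 3 each). The largest shift was in Col8a1 to Col8a2, at 38.9, 38.8 and 29.3 at P6 against 6.16, 8.08 and 8.05 at P1. Each of these 6 ratios had non-overlapping passages and reached the smallest p that 3 against 3 allows (exact permutation test, two-sided, p = 0.1, and 0.114 after Benjamini-Hochberg adjustment over the 8 ratios computed), so none can pass 0.05 in this design. No source used here says how FPKM were computed, and the level of a ratio depends on the gene length used. From counts per coding transcript length, Col1a1 to Col1a2 was 1.31 ± 0.10 at P6 and 1.69 ± 0.04 at P1, while its log2 change was -0.37 from counts and -0.36 from FPKM. Between types, Col5a1 to Col1a1 was 0.208 ± 0.005 at P6 and 0.173 ± 0.009 at P1 (SD, n = 3 each; exact permutation p = 0.1). Col3a1 to Col1a1 was 0.148 ± 0.012 at P6 and 0.163 ± 0.014 at P1 (exact permutation p = 0.2, adjusted 0.2).

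**Figure D4:**
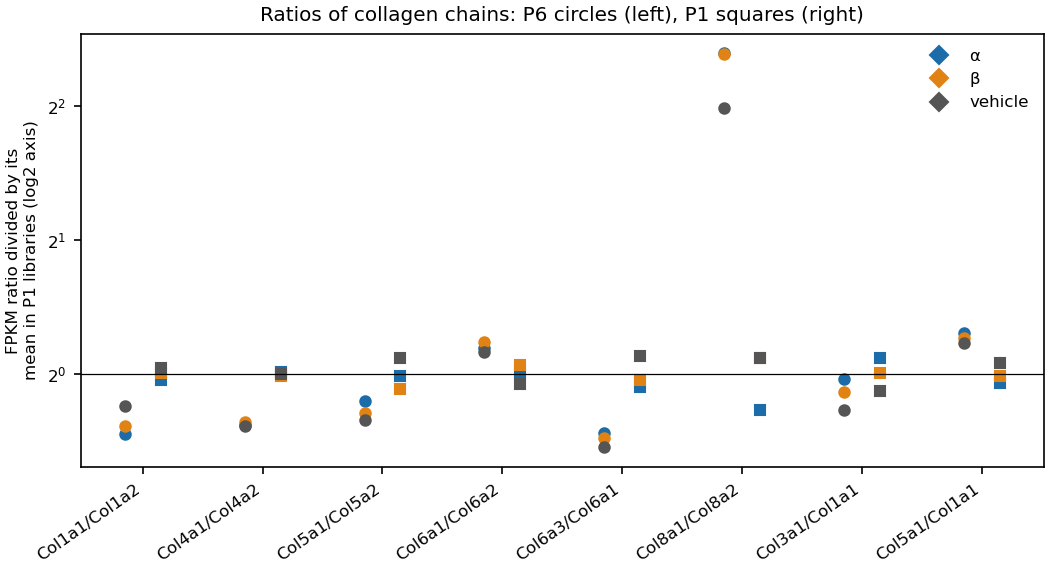
FPKM ratio of collagen chains in each library divided by its mean in the 3 P1 libraries (y axis, log2 scale), with P6 as circles on the left and P1 as squares on the right of each ratio (x axis), coloured by treatment. The circles of Col1a1/Col1a2, Col4a1/Col4a2, Col5a1/Col5a2 and Col6a3/Col6a1 lie below the squares, and those of Col8a1/Col8a2 lie far above.

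The genes that modify, fold, cleave, cross-link, bind and degrade collagen did not move as a block with passage. Of 53 listed, 51 were tested, 16 were higher and 20 were lower at P6, where 30% and 29.1% of all tested genes were. The median log2 change was -0.04, against 0.00 over all tested genes. Serpinh1, the collagen chaperone HSP47, was lower at P6, with 1093, 1270 and 1249 CPM at P6 against 2154, 2382 and 2476 CPM at P1 (log2 change -0.96 ± 0.04, adjusted p = 7.8e-06). Fkbp14, a prolyl isomerase that acts on collagen (0.46 ± 0.04), and Tmem38b, an ion channel of the endoplasmic reticulum (0.70 ± 0.07), rose. Of the lysyl hydroxylases, Plod2, which acts on the telopeptides used in cross-links, fell (-0.77 ± 0.06) and Plod1, which acts on the helix, rose (0.72 ± 0.06). P3h3, a partner of Plod1, rose as well (1.08 ± 0.04). The procollagen N-proteinases Adamts2 (-0.54 ± 0.08), Adamts3 (-0.79 ± 0.17) and Adamts14 (-0.39 ± 0.09) all fell. Of the cross-linking enzymes, Loxl2 (-0.72 ± 0.05) and the type IV collagen peroxidase Pxdn (-0.59 ± 0.06) fell and Loxl3 (0.56 ± 0.05) rose. Itga11, the α subunit of a collagen receptor integrin, was the receptor that rose most, with 288, 355 and 451 CPM at P6 against 111, 154 and 190 CPM at P1 (1.27 ± 0.05). Its β partner Itgb1 (0.41 ± 0.05) and the uptake receptor Mrc2 (0.49 ± 0.06) also rose. Of the proteases, Mmp2 rose (0.58 ± 0.04) and Mmp13 (-1.20 ± 0.15) and Mmp14 (-0.40 ± 0.05) fell.

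α-Amyrin and β-amyrin are isomeric plant triterpene alcohols. In α-amyrin (ursane skeleton) the methyl groups of ring E sit on neighbouring carbons, and in β-amyrin (oleanane skeleton) both sit on the same carbon. With α-amyrin, no collagen chain gene passed the adjusted threshold (0 of 40 members, with 0.0295% of all genes called), yet the members leaned downwards. Without adjustment 17 members had p below 0.05 and lower levels and 0 had higher ones, where 5.55% of all genes were lower and 6.21% higher. By class these 17 were 9 of 11 fibrillar chains, 3 of 6 basement membrane chains, 2 of 9 FACITs and 3 of 14 other chains. The median log2 change, α-amyrin minus vehicle, was -0.17 over all members, -0.41 over the fibrillar chains, which were all below 0, and 0.01 over all genes. The count of adjusted calls depended on the fit: DESeq2's Wald test called 9 members lower (1.14% of all genes called in either direction) and edgeR without a filter 14 (1.55%). Without the P1 β-amyrin library edgeR called 11 (1.91%), and without the P6 β-amyrin library 12 (2.12%). By contrast, edgeR with 2 other scalings of the libraries or with a mean CPM of at least 5, and limma on FPKM, called no member. Calls with 1 library left out came only when that was a β-amyrin library, which is outside this contrast. No collagen chain gene was called higher in any of these fits.

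At each passage separately, the α-amyrin library was below its vehicle library for most abundant chains. Among the 24 members with CPM of at least 5 in every library, 17 were below vehicle at both passages and 2 were above at both, against 29% and 32.5% of all genes at that level. Of the 10 fibrillar members among them 9 were below at both. The lowest adjusted p was that of Col5a1, with 2609 CPM with α-amyrin against 3361 CPM with vehicle at P6, and 2528 against 3584 CPM at P1 (log2 change -0.43 ± 0.05, adjusted p = 0.0745). Col1a1 had 9338 CPM with α-amyrin against 12622 with vehicle at P6, and 11859 against 15011 CPM at P1 (-0.39 ± 0.05, adjusted p = 0.0869). Col5a2 had 2880 CPM with α-amyrin against 4090 with vehicle at P6, and 2455 against 3160 CPM at P1 (-0.44 ± 0.06, adjusted p = 0.0872). Both genes of the abundant type IV pair shifted alike, with log2 changes of -0.36 ± 0.05 for Col4a1 and -0.37 ± 0.05 for Col4a2 (adjusted p = 0.0872 each).

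Among the 24 abundant members, the ratios furthest below vehicle were those of Col7a1 and Col5a3 at P1. By size, with no test since each value rests on 1 library, and among members with CPM of at least 5 in either library of the pair, 1 member was at least 1.5-fold lower with α-amyrin at P6 (Col2a1, log2 ratio -0.73, against -0.10 at P1) where 0.933% of genes were. At P1 4 were (Col5a3, Col7a1, Col27a1 and Col15a1) where 1.05% of genes were. Col7a1 had 77.9 CPM with α-amyrin against 81.0 CPM with vehicle at P6, but 43.7 against 102 CPM at P1 (log2 ratios of -0.06 and -1.22). Col5a3 had 83.6 CPM with α-amyrin against 97.7 CPM with vehicle at P6, and 77.6 against 172 CPM at P1 (-0.23 and -1.15). Col27a1 was lower at both passages, with 25.7 CPM with α-amyrin against 34.0 CPM with vehicle at P6 and 28.7 against 43.5 CPM at P1.

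The α1, α2 and α3 chains of type VI lay close to their vehicle levels. The log2 change with α-amyrin was 0.06 for Col6a1 (95% interval -0.06 to 0.18), 0.01 for Col6a2 (-0.11 to 0.13) and 0.00 for Col6a3 (-0.18 to 0.18). Col14a1 (0.05) and Col16a1 (-0.03) were likewise near 0. None of 10 fibroblast markers was called with α-amyrin. Of these 8 had a log2 change above 0, and the median was 0.25 over the 10 against 0.01 over all tested genes. The other two were Pdgfrb (-0.38 ± 0.05, adjusted p = 0.0872) and Fap (-0.44 ± 0.16, adjusted p = 0.367). Summed macrophage markers were 4980 CPM with α-amyrin against 4913 CPM with vehicle at P6, and 270 against 321 CPM at P1. Of the 51 processing genes 41 had a negative log2 change with α-amyrin, with a median of -0.11 against 0.01 over all tested genes. Among them Itga11 was called lower, with 288 CPM with α-amyrin against 451 CPM with vehicle at P6, and 111 against 190 CPM at P1 (log2 change -0.71, adjusted p = 0.0424).

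β-Amyrin was followed by smaller differences from vehicle. No member was called (0 of 40, with 0.0059% of all genes called), DESeq2's Wald test called 0, and 4 were lower and 0 higher without adjustment, where 5.39% and 4.86% of all genes were. The median log2 change was -0.07 over the members and -0.09 over the fibrillar chains. Among the 24 abundant members 9 were below vehicle at both passages and 3 were above, against 26.4% and 34.3% of genes. Col5a1 had 3148 CPM with β-amyrin against 3361 CPM with vehicle at P6, and 3143 against 3584 CPM at P1 (log2 change -0.14 ± 0.05, adjusted p = 0.469). Of the abundant members with 1 direction at both passages, the pairs lowest on average were those of Col5a3 (log2 ratios of -0.10 at P6 and -0.48 at P1), Col18a1 (-0.22 and -0.28), Col27a1 (-0.25 and -0.14) and Col14a1 (-0.29 and -0.07). Those highest were Col8a1 (0.15 and 0.09), Col6a1 (0.03 and 0.04) and Col3a1 (0.01 and 0.03). By size, among members with CPM of at least 5 in either library of the pair, 0 were at least 1.5-fold lower with β-amyrin at P6 and 2 at P1, where 2.11% and 1.6% of genes were. Summed macrophage markers were lower with β-amyrin, at 3532 CPM against 4913 CPM with vehicle at P6 and 40.8 against 321 CPM at P1, and their part in these small differences was not tested.

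**Figure D5:**
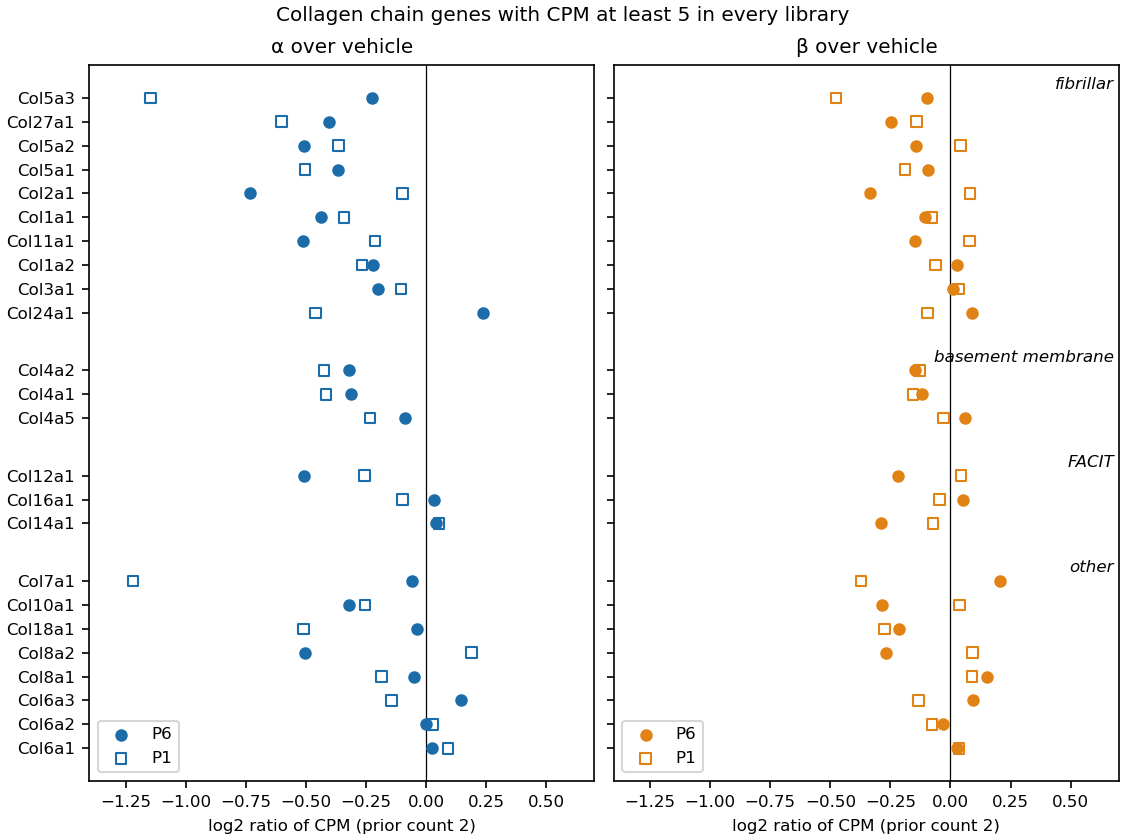
Log2 ratio of CPM over vehicle (x axis, prior count 2) with α-amyrin (left panel) and β-amyrin (right panel) at P6 (filled circles) and P1 (open squares), for the 24 collagen chain genes with CPM of at least 5 in every library (rows, by class). Both symbols lie left of 0 for most fibrillar chains with α-amyrin, and they lie nearer to 0 with β-amyrin.

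The isomers were also set against each other directly, at the same dose and time, in the same fit. No member passed (0 of 40, with 0.059% of all genes called), and without adjustment 12 were lower and 1 was higher with α-amyrin than with β-amyrin, where 4.01% and 5.21% of all genes were. This comparison shares the α-amyrin libraries with that against vehicle, so these comparisons are not independent of each other. The fitted log2 difference was below 0 for all 11 fibrillar chains, 7 of them with an unadjusted p below 0.05, and ran as near to 0 as -0.03 ± 0.18 in Col11a2. Its median was -0.29 over these chains and 0.00 over all genes. The difference was -0.38 for Col5a2 (95% interval -0.53 to -0.24, adjusted p = 0.152), -0.30 for Col1a1 (-0.42 to -0.17, adjusted p = 0.172) and -0.33 for Col11a1 (-0.51 to -0.14, adjusted p = 0.288). Among the 24 abundant members 17 were lower with α-amyrin than with β-amyrin at both passages and 2 were higher, where 30.6% and 26.8% of genes were. By size, with the same limit of 5 CPM in either library of the pair, 0 were at least 1.5-fold lower at P6 and 2 at P1, where 0.446% and 0.62% of genes were. Of those with 5 CPM in every library, the pair lowest on average was that of Col7a1 (log2 ratios of -0.26 at P6 and -0.84 at P1). Col14a1 was the member that was higher, with 24.8 CPM with α-amyrin against 19.7 CPM with β-amyrin at P6 and 26.3 against 24.0 CPM at P1 (0.23, 95% interval 0.01 to 0.44). DESeq2's Wald test called 7 members lower with α-amyrin than with β-amyrin (0.702% of all genes called in either direction) and edgeR with no filter 11 (1.62%). By contrast, edgeR with other scalings of the libraries or with a mean CPM of at least 5, and limma on FPKM, called no member. Without the P6 β-amyrin library edgeR called 3 (Col1a1, Col5a2 and Col12a1; 2.53%).

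Whether the response to amyrin differed between passages was tested with both compounds taken as samples of an amyrin group. No member was called, nor was any of the 16962 tested genes (0% called, edgeR). In this model a difference between the isomers counts as error, which makes a call harder. At an unadjusted p below 0.05, 1 member passed, Col8a2 (log2 difference of responses, P6 minus P1, -0.52), where 2.66% of all genes did. In edgeR without a filter on low counts, 159 of 29952 genes were called, and 3 of them were members, Col7a1 (0.80), Col5a3 (0.59) and Col2a1 (-0.53), and DESeq2 was not run for this term.

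The remaining close neighbours among the members also varied. Col3a1 and Col5a2 lie tail to tail on chr1 with 24614 bases between them, and Col3a1 was lower at P6 while Col5a2 was called higher. Col9a1 and Col19a1 lie tail to tail on chr1 with 9205 bases between them, and both were lower at P6. Col6a2 and Col6a1, on the same strand of chr10 with 85161 bases between them, were both lower at P6.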

How the data were processed

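Libraries were made from poly(A) RNA with a directional kit, per the labels' protocols. The submitters' processing notes name mm10, Trimmomatic 0.38, HISAT2 2.1.0, SAMtools 1.9 with FastQC 0.11.7, and featureCounts 1.6.3; no source used here gives their settings. The authors deposited raw read counts, which entered every main test, and FPKM, which served for levels between genes, chain ratios and alternatives. The 44 members, the gene lists and the tests were chosen with earlier results of these data known.

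All 6 libraries were fitted with edgeR 4.0.16 (glmQLFit and glmQLFTest, R 4.3.3; passage and treatment as additive terms, TMM, filterByExpr by passage, Benjamini-Hochberg adjusted p below 0.05). It left 2 residual and 4.83 prior degrees of freedom, so a response that differs between passages counts as error. Errors are standard errors from the test statistic. The fit was tested on simulated data. Pairs of single libraries were described by log2 CPM ratios with a prior count of 2. Alternatives used DESeq2 1.42.0 and limma 3.58.1. Named genes were, per class, the 3 highest and 3 lowest called changes with passage; for compounds, the 5 highest and 5 lowest mean ratios with 1 direction at both passages among members with CPM of at least 5 in every library; and up to 3 called processing genes per group. Genes outside these rules were given to account for every member, or to name list genes that went the other way. Library depth limits genes with few reads, and the exact permutation tests cover 3 libraries per passage.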

Additional observations from a re-analysis of the deposited data

How the results depend on the processing

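The passage counts of 7 higher and 22 lower members stayed within 1.5 times under other scalings, no filter, DESeq2, limma on FPKM and no treatment term; leaving out 1 library gave 6 to 7 higher and 22 to 23 lower. With mean CPM of at least 5, only 26 members were tested and 13 were lower. The α-amyrin count of 0 lower became 14 with no filter and 9 with DESeq2, and 0 to 12 with 1 library left out; against β-amyrin it became 11, 7 and 0 to 3. The passage-by-amyrin count became 3 with no filter. These causes were not tested. By size, P6 over P1 with α-amyrin had 4 higher members at 1.5-fold, against 2 of 27 at 2-fold, where 7.97% of all genes were. No share over all genes is given at 1.5-fold, so the count of 4 does not set collagens apart from other genes. At 2-fold, α-amyrin over vehicle at P6, β-amyrin over vehicle at P1 and α-amyrin over β-amyrin at P1 each had 0 lower, and β-amyrin over vehicle at P1 had 0 in FPKM ratios. Without the P1 vehicle library, 3 small changes reversed: Col14a1 with α-amyrin (-0.019, range over libraries left out to 0.11), and with β-amyrin Col3a1 (-0.020, to 0.053) and Col5a3 (0.031, down to -0.60). The labels give no replicate numbers, so P6 and P1 libraries could be matched only by treatment. The treatment term of the fit does this, and without it 5 members were higher and 19 lower. The exact permutation tests ignored this matching. Few reads limit Col9a1, Col25a1 and Col26a1.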
